A study of Mus musculus with 8 samples.

Results

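Of the 599 miRNA probes on the NanoString nCounter mouse panel, 4 are described here: mmu-miR-135a, mmu-miR-365, mmu-miR-1927 and mmu-miR-1960. They were selected on the measured values, for higher raw counts in adult Müller glia (MG) than in adult retinal neurons. That difference is therefore given as a description, and nothing is supported with it. Other comparisons that use adult MG or adult neurons share those counts, so their ratios, counts and places are descriptions too. MG are the principal glia of the retina, and they span its whole thickness.

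miRNAs were measured in 6 pooled samples, 1 for each condition, all labelled with the genotype Rlbp-Cre:tdTomato. In these mice tamoxifen activates Cre under the Rlbp promoter, and Cre removes a stop cassette so that MG express tdTomato. Adult MG and adult neurons were the tdTomato+ and tdTomato− fractions of 40 retinas sorted by FACS, and P11 MG and P11 neurons were the same fractions of 32 retinas from postnatal day 11 pups (P11/12 in the sample titles). The samples called 8 DIV and 14 DIV were MG grown for 8 and 14 days in vitro from 20 pooled P11 retinas in medium with serum and EGF, with 1 passage before the earlier harvest. The study grew them from dissociated retina, describes no sort for them, and reports that few neurons were left after the passage. Culture and the lack of a sort therefore cannot be told apart in ratios of cultured to fresh MG. Their titles, descriptions and raw data columns give these times, but the age field has the times exchanged between both samples, and the titles were followed. The negative fraction holds every cell without the reporter and is called neurons as in the study. Rlbp is also active in the pigmented and ciliary epithelium, which were dissected away before the sort. Animals were pooled and each pool was measured once, so no spread between animals or cultures is known, no test was possible and no p-value is given. A size rule of at least 2-fold takes the place of a test.

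A miRNA is a short RNA that guides Argonaute proteins to mRNAs, mostly by pairing of its seed, the bases near its 5′ end, and lowers their translation or stability. miR-135a is known in the developing mouse midbrain, where it acts on Lmx1b and Wnt signalling. miR-365 is encoded beside miR-193b, and this pair has been studied in the formation of brown fat in mice. miR-204, against which the 4 are set below, is known from the eye, where it is encoded within Trpm3. For miR-1927 and miR-1960 no function is given here.

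The mature sequences are shown because the probes recognise these molecules and the seed defines which mRNAs they can pair with. They were taken from RefSeq annotation of mouse build GRCm38.p6, bases 2 to 8 are in capitals, and for miR-1927 the hairpin is printed. The probe names of miR-135a and miR-365 carry no arm, and the arm shown is the mature product that both genes of each miRNA share.
miR-135a-5p: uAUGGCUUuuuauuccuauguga
miR-365-3p: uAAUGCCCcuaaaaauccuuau
miR-1960: cCAGUGCUguuagaagagggcu
miR-1927 hairpin: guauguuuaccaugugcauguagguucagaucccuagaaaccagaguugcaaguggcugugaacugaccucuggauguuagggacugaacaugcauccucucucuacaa

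The 3 seeds differ from each other. The mature miR-135a-5p is encoded by Mir135a-1 at chr9:106154140-106154162 on the plus strand and by Mir135a-2 at chr10:92072141-92072163 on the minus strand. The hairpin of Mir135a-1 overlaps the lncRNA D030055H07Rik on its own strand and the protein-coding gene Glyctk on the opposite strand, and Mir135a-2 lies 9561 bases from the lncRNA Rmst. The mature miR-365-3p is encoded by Mir365-1 at chr16:13453895-13453916 and by Mir365-2 at chr11:79726467-79726488, both on the plus strand. Mir365-1 lies 4239 bases from Mir193b, and Mir365-2 lies 14366 bases from Mir193a. The hairpin of Mir1927 at chr1:160295864-160295972 lies within Rabgap1l on the same minus strand, and mature miR-1960 at chr5:30170751-30170772 lies within Hadhb on the same plus strand. Since miR-135a and miR-365 each have 2 genes with the same product, the counts do not show which gene was used.

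The panel gave between 275042 and 696712 miRNA counts per sample, and between 130 and 186 probes exceeded background, a limit set 2 SD over the mean of 8 negative controls (52.8 to 105.8 raw counts). Scaled counts are raw counts minus the mean negative control, multiplied by a factor (0.490 to 3.49) that sets the sum of the housekeeping mRNAs Actb, B2m, Gapdh and Rpl19 to that of adult MG. These mRNAs did not keep 1 ratio: B2m had 17 raw counts in adult neurons and 7308 at 8 DIV, and Actb ranged from 1025 to 12624. The labelled cell types were checked with marker miRNAs. The photoreceptor and neuron list (miR-182, miR-96, miR-183 and miR-124) summed to 585842 scaled counts in adult neurons and 80562 in P11 neurons, against 461 to 1735 in the MG samples, where 3 of 4 were above background. miR-204 had 247375, 72948, 26748 and 19202 scaled counts in adult MG, P11 MG, 8 DIV and 14 DIV, and 13692 and 8437 in adult and P11 neurons. The other glial miRNAs listed did not share 1 direction from P11 MG to 8 DIV. miR-9 (65831 to 14987) and miR-99a (8413 to 2566) were lower at 8 DIV. miR-125b-5p (22204 to 28308), miR-100 (1475 to 1593) and miR-23a (548 to 3118) were higher. The red blood cell miRNA miR-451 had 1599 and 371 raw counts in adult and P11 neurons and was at background in the MG samples, and miR-211, known from pigmented epithelium, had 13040 and 3169 scaled counts in the neurons and 34.1 to 290.4 in MG. Intervals below are exact 95% Poisson limits of the raw counts and cover counting error only. For a fold change, each bound pairs the lower limit of one count with the upper limit of the second, which makes the interval wider than 95%. A lower limit under background was first raised to the background limit, however, and this cuts an interval short. It cut the upper ends for miR-1927 in adult MG over adult neurons and for miR-1960 in the ratios to P11 neurons, among others.

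miR-135a had the highest counts of the 4. Its raw counts were 11150 in adult MG, 416 in adult neurons, 8193 in P11 MG, 3305 in P11 neurons, 3020 at 8 DIV and 1617 at 14 DIV, and all 6 were above background. As scaled counts these were 11111, 1339, 5996, 3920, 1592 and 780 in the same order. The level was highest in adult MG, followed by P11 MG, P11 neurons, 8 DIV, adult neurons and 14 DIV, and the counting limits of neighbours in this order did not overlap. The closest neighbours were 8 DIV, with limits of 1535 to 1650, and adult neurons, with limits of 1203 to 1486. By raw count it held place 12 of 599 in adult MG and 13 in P11 MG, but place 58 in adult neurons, and it made up 1.64% of the miRNA counts of adult MG and 0.115% of those of adult neurons.

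miR-365 was above background in the MG samples alone. It had 1089 raw counts in adult MG, 337 in P11 MG, 406 at 8 DIV and 979 at 14 DIV, whereas the 45 counts of adult neurons and the 70 of P11 neurons lay below the limits of 69.9 and 87.0. The scaled counts of the glial samples were 1050, 211, 197 and 468. P11 MG (185 to 239) and 8 DIV (177 to 219) could not be separated by their counting limits, and 14 DIV lay between them and adult MG. Background in adult neurons corresponds to 132 scaled counts, so a level of miR-365 below that was not detectable there, and in P11 neurons the bound was 53.5.

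miR-1927 and miR-1960 were counted at nearly the same level in each MG sample. miR-1927 had 1331 raw counts in adult MG, 79 in adult neurons, 548 in P11 MG, 52 in P11 neurons, 318 at 8 DIV and 274 at 14 DIV. miR-1960 had 1168, 94, 495, 90, 315 and 238 in the same samples. In neurons both were near the detection limit. miR-1927 was below it in P11 neurons, and its 79 counts in adult neurons (62.6 to 98.5) had a lower limit under the background of 69.9. The 90 counts of miR-1960 in P11 neurons (72.4 to 110.6) likewise reached below the background of 87.0.

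On the scaled counts, miR-1927 had 1292 in adult MG, 366 in P11 MG, 164 in adult neurons, 150 at 8 DIV and 122 at 14 DIV. The limits of adult neurons (107 to 232) overlapped those of 8 DIV (132 to 170), which overlapped those of 14 DIV (107 to 139). miR-1960 had 1129 in adult MG, 327 in P11 MG, 217 in adult neurons, 149 at 8 DIV, 105 at 14 DIV and 57.1 in P11 neurons. Here adult neurons (154 to 290) and 8 DIV (131 to 168) overlapped, while the other neighbours in this order did not.

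**Figure D1:**
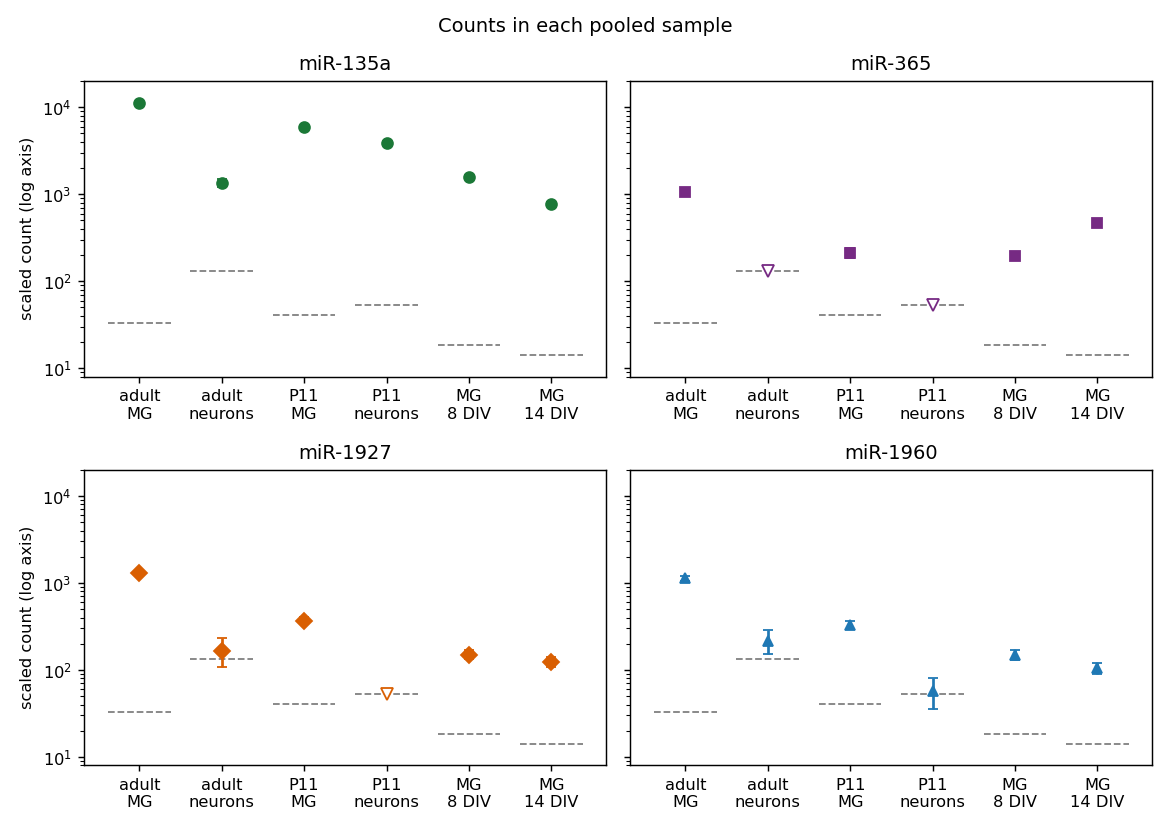
Scaled counts (log axis) of the 4 miRNAs in the 6 pooled samples; bars are 95% Poisson limits, dashed lines the background of each sample, and open triangles stand at background for a probe that was not above it. miR-135a lies above background in all 6 samples and is highest in adult MG (11111), and miR-365 is at background in both neuron samples.

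The comparison of adult MG with adult neurons chose the 4 miRNAs. miR-135a was 8.30-fold higher in adult MG (7.34 to 9.41), miR-365 at least 7.93-fold, miR-1927 7.87-fold (5.26 to 10.3) and miR-1960 5.21-fold (3.67 to 7.80), where at least means that the neuron sample was set to its background limit. All 4 passed 2-fold, as did 7.96% of the 201 probes measured in this pair, and nothing is read from that count. Of the 201 ratios 59 were lower and 28 upper bounds with 1 sample at background, and among the 114 probes above background in both samples miR-135a held place 3, miR-1927 place 4 and miR-1960 place 8 from the highest ratio. The sizes rest on the scaling: across 7 other scalings miR-135a ranged from 4.11-fold with Actb alone to 43.4-fold with Gapdh alone, and miR-1960 from 2.58-fold to 27.3-fold. In pooled samples fewer cells of a type and less RNA per cell cannot be told apart.

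At P11 the same comparison rests on samples that the selection did not use. miR-1927 was at least 6.85-fold higher in P11 MG than in P11 neurons, miR-1960 5.74-fold (3.62 to 6.75) and miR-365 at least 3.95-fold. miR-135a, at 5996 against 3920 scaled counts, was 1.53-fold higher (1.45 to 1.62) and did not reach 2-fold. So 3 of the 4 passed, beside 16.9% of the 172 measured probes, whose median log2 ratio was -0.15. Among the 107 probes above background in both samples miR-1960 held place 4 and miR-135a place 24 from the highest ratio, and miR-365 and miR-1927, as bounds, have no place. With the positive ligation controls as the scale, miR-135a was lower in P11 MG than in P11 neurons (0.654-fold), and it was higher in MG under the other 6 of 7 scalings, while the other three were higher in MG under all 7.

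From P11 to adult, the 4 miRNAs differed in what happened in MG. miR-365 was 4.98-fold higher in adult than in P11 MG (4.13 to 6.03), miR-1927 3.53-fold (3.04 to 4.10) and miR-1960 3.45-fold (2.95 to 4.05). miR-135a was 1.85-fold higher (1.78 to 1.93) and stayed under 2-fold. The count was thus 3 of 4, beside 24.3% of 181 measured probes, and miR-365 held place 6 from the highest ratio of the 141 probes above background in both samples. The selection favoured high counts in adult MG, so this count and place are descriptions. miR-204, at 3.39-fold, was close to miR-1927 and miR-1960. With equal total counts the log2 ratio of miR-135a was -0.10 in place of 0.89, and it was above 0 in the other 7 of 8 scalings. On that scale miR-365 alone passed 2-fold, and miR-1927 and miR-1960 had log2 ratios of 0.82 and 0.79.

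In neurons the same span of age went the opposite way for miR-135a. Its scaled counts were 3920 in P11 neurons and 1339 in adult neurons, 2.93-fold lower in the adult (2.55 to 3.37). Only 1.27% of the 157 measured probes (2 probes) were at least 2-fold lower in adult neurons, 77.1% were at least 2-fold higher, and miR-135a had the lowest ratio of the 115 probes above background in both samples. For 15 more probes, at background in adult neurons, the ratio is an upper bound that could lie lower. Some of these bounds, such as that of miR-300 (log2 ratio at most 1.07), were counted as at least 2-fold higher. The 77.1% is therefore more than the share shown to be higher. The share of miR-135a in the miRNA counts was 1.28% in P11 neurons and 0.115% in adult neurons. Across 7 other scalings its log2 ratio ranged from -4.38 to -0.94 and was below 0 in all of them. The selection favoured low counts in adult neurons, so the place of miR-135a here is a description.

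The other members were near or below background in neurons. miR-1960 was 3.79-fold higher in adult than in P11 neurons (1.88 to 5.42), and miR-1927 at least 3.07-fold. Among the 115 probes above background in both samples miR-1960 held place 50 from the highest ratio, and miR-1927 has a bound only. With equal totals or the ligation controls the ratio of miR-1960 was below 1, and the lower bound of miR-1927 was below 1, which leaves its direction unknown. miR-365 was at background in both samples and has no ratio. miR-451, of red blood cells, and miR-211, known from pigmented epithelium, were higher in adult than in P11 neurons as well. They had 5464 against 395 and 13040 against 3169 scaled counts. At 2-fold 77.1% of all measured probes were counted as higher, upper bounds included. The log2 ratio of miR-211 (2.04) was near the panel median (1.62), that of miR-451 above it (3.79). The part of red blood cells or pigmented epithelium in these ratios was not tested.

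**Figure D2:**
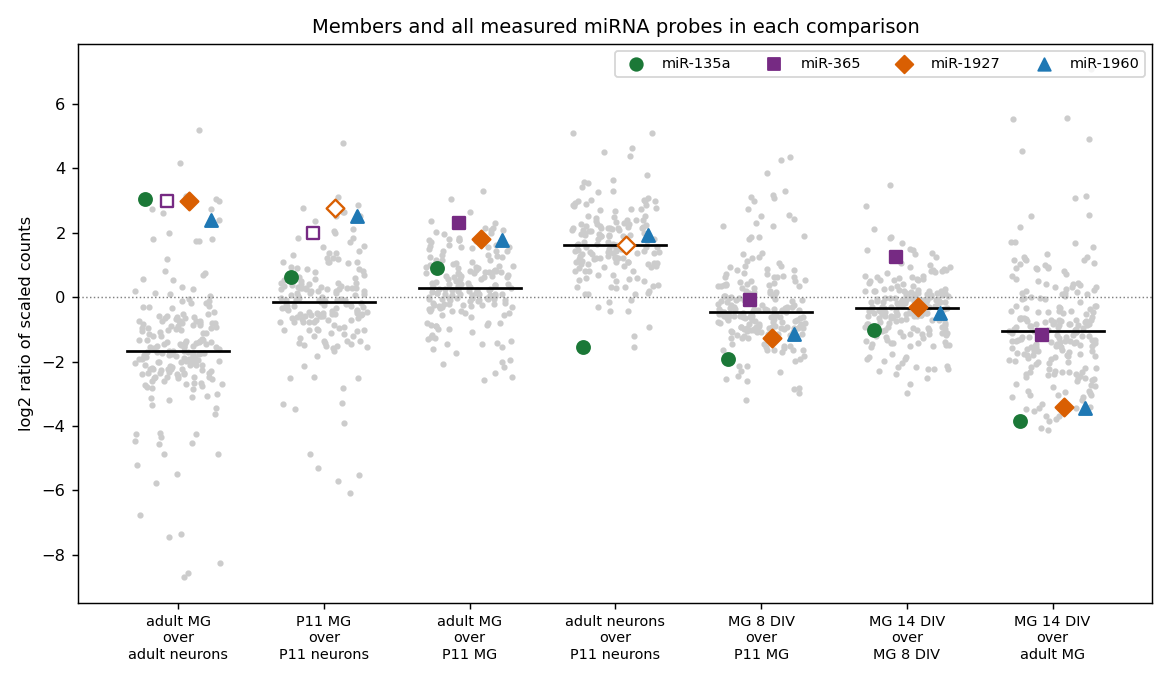
Log2 ratios of scaled counts in 7 comparisons; grey points are all measured miRNA probes, black lines their median, coloured symbols the 4 miRNAs, and open symbols lower bounds with the second sample at background. The lowest point in adult over P11 neurons is miR-135a at -1.55, while its ratio of adult over P11 MG is 0.89.

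In culture, 3 of the 4 were lower at 8 DIV than in P11 MG, the age from which the cultures were made. miR-135a was 3.77-fold lower (3.55 to 3.99), miR-1927 2.44-fold lower (1.96 to 3.04) and miR-1960 2.20-fold lower (1.76 to 2.76). miR-365 was at 0.935-fold of P11 MG (0.740 to 1.19), an interval that includes 1. Among all 196 measured probes 22.4% were counted as at least 2-fold lower, including lower bounds such as that of miR-1187 (log2 ratio at least -1.09). The 3 of 4 is a description, since miR-1927 and miR-1960 had nearly the same counts. The number also depended on the scale. With equal totals, the positive controls, the ligation controls or Gapdh alone miR-135a was the 1 member at least 2-fold lower. With Actb alone 0 members were. miR-204 was 2.73-fold lower.

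Between 8 and 14 DIV, miR-365 and miR-135a moved apart. miR-365 had 197 scaled counts at 8 DIV and 468 at 14 DIV, 2.37-fold higher (2.00 to 2.82), and miR-135a had 1592 and 780, 2.04-fold lower (1.87 to 2.22). Only 6.25% of 208 measured probes were at least 2-fold higher at 14 DIV, and 22.1% were at least 2-fold lower. The ratio of miR-365 held place 9 of the 160 probes above background in both samples and was above 1 under all 8 other scalings, from 1.25 to 6.45, whereas miR-135a was at least 2-fold lower only with the housekeeping sum and Actb alone among the scalings, and was higher at 14 DIV with B2m alone. miR-1927 was at 0.814-fold (0.629 to 1.05) and miR-1960 at 0.705-fold (0.537 to 0.923). Since the age field exchanges the times of both cultures, these directions hold for the times in the titles.

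The last comparison set the cells at 14 DIV against adult MG. miR-135a was 14.2-fold lower at 14 DIV (13.3 to 15.3), miR-1960 10.8-fold lower (8.81 to 13.2), miR-1927 10.6-fold lower (8.77 to 12.8) and miR-365 2.25-fold lower (1.98 to 2.55). All 4 passed 2-fold, beside 51.6% of 213 measured probes. That share includes lower bounds, such as that of miR-128 (log2 ratio at least -1.16), whose direction is unknown. miR-135a held place 2 from the lowest ratio of the 142 probes above background in both samples. The selection favoured high counts in adult MG, so this count and place are descriptions. For miR-365 the share of the miRNA counts was higher at 14 DIV (0.251%) than in adult MG (0.155%), so its direction depends on the scale. A list of 6 miRNAs of mesenchymal and vascular cells summed to 1809 scaled counts at 8 DIV and 8603 at 14 DIV, against 195 and 255 in adult and P11 MG. Of these 6 miRNAs, 5 were above background at 8 DIV and 6 at 14 DIV, against 1 in each fresh MG sample, and miR-145 had 9100 raw counts at 14 DIV and 788 at 8 DIV. The 1 above background in fresh MG, miR-126-3p, went the opposite way. It had 169 and 228 scaled counts in adult and P11 MG, 25.1 at 8 DIV and 20.6 at 14 DIV. The part of mesenchymal or vascular cells in the culture ratios was not tested.

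**Figure D3:**
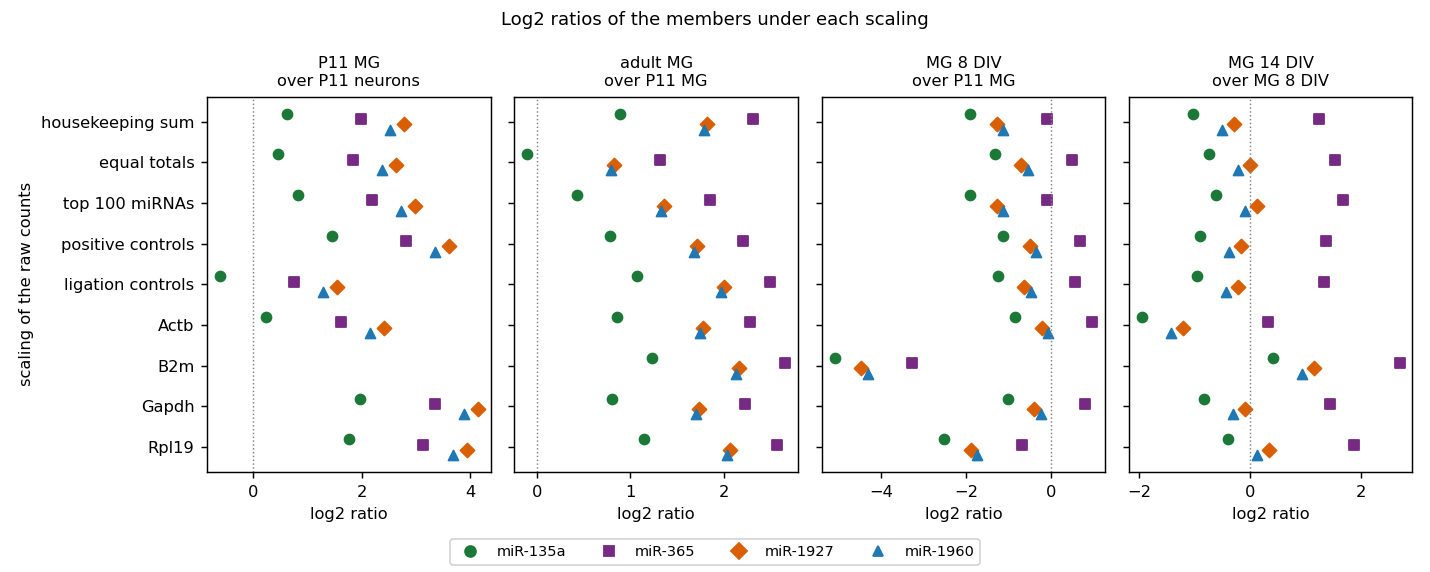
Log2 ratios of the 4 miRNAs in 4 comparisons (columns) under the housekeeping sum and the other scalings (rows); symbols mark the miRNAs, and B2m is not drawn for neurons, where it was below background. Within a row the spacing between the miRNAs is fixed while the position of 0 moves, and miR-365 lies right of 0 in every row of 14 DIV over 8 DIV.

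Ratios between probes within a sample do not depend on the scaling. They compare counts and not numbers of molecules, because probes differ in efficiency, so only their constancy across samples is read. Likeness to each member was measured as the SD, over the 6 samples, of the log2 ratio of raw counts without subtraction, with counts below background raised to its limit. This measure draws low counts together. Candidates for a member were the probes above background in at least as many samples as the member. miR-9, an abundant miRNA of neural tissue, was nearest to miR-135a with an SD of 0.45, against a median of 1.78 for the 95 candidate probes. Its background-subtracted counts were 5.88, 7.26, 11.0, 4.70, 9.42 and 7.27 times those of miR-135a in adult MG, adult neurons, P11 MG, P11 neurons, 8 DIV and 14 DIV. miR-99a (0.84) and miR-140 (1.01) followed at a distance.

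The nearest probe to miR-1927 was miR-1960, with an SD of 0.18 among 115 candidates with a median of 1.61. On background-subtracted counts the SD was 0.26 over the 5 samples where both were above background. There the ratio of miR-1927 to miR-1960 was 1.14 in adult MG, 0.759 in adult neurons, 1.12 in P11 MG, 1.01 at 8 DIV and 1.17 at 14 DIV. Its counting interval included 1 in all of these except adult MG (1.02 to 1.28). miR-99a (0.37) and miR-1965 (0.40) came next for miR-1927. For miR-1960, above background in all 6 samples, the nearest candidates were miR-140 (0.39), miR-99a (0.48) and miR-1966 (0.66). miR-1927 was no candidate there, being above background in 5 samples, although the SD of this pair is the 0.18 given above. For miR-365 the nearest were miR-125b-3p (0.60), miR-152 (0.63) and miR-720 (0.68), against a median of 1.65 for its 140 candidates. miR-365, miR-125b-3p and miR-152 were at background in both neuron samples, where their ratio is that of a limit to itself, so part of this likeness comes from samples without a value. Among the 96 probes above background in all 6 samples the nearest was miR-720.

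miR-1927 and miR-1960 also kept nearly the same quotient to miR-204 in the MG samples, a comparison chosen after the values were seen. miR-1960 was at 0.457%, 0.449%, 0.556% and 0.546% of the miR-204 count in adult MG, P11 MG, 8 DIV and 14 DIV. miR-1927 was at 0.522%, 0.502%, 0.562% and 0.638%. The highest of these divided by the lowest was 1.24 for miR-1960 and 1.27 for miR-1927, the first and the second smallest of the 123 probes above background in all 4 MG samples, for which the median was 7.62. The third was miR-1965 (1.42), and only these 3 probes were within 1.5. That limit marks no gap, since miR-1968 (1.504), miR-30d (1.52) and miR-30c (1.53) came directly after. The probes in places 1 to 4 were all numbered between miR-1892 and miR-1971. Of the 14 probes with such numbers, miR-1937a+miR-1937b had the highest value (37.8, place 115). miR-204 itself had 247414 raw counts in adult MG. Its part in the counts of miR-1927, miR-1960 and miR-1965 was not tested.

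In neurons this quotient could be judged only loosely, because the counts that it would give lie below the background limits of 69.9 and 87.0. miR-1927 was at 1.20% of miR-204 in adult neurons, and at the median glial quotient 53.2 raw counts would stand there, against 79 measured (62.6 to 98.5). In P11 neurons 80.6 would stand against 52 measured (38.8 to 68.2). miR-1960 was at 1.58% in adult neurons, where 51.6 would stand against 94 measured (76.0 to 115). In P11 neurons 77.7 would stand against 90 measured (72.4 to 110.6), and only this one lies inside the limits of the measured count. In adult neurons both measured counts were above those values, but near background, where the negative controls had an SD of 19.0 counts. The limits cover counting error only, so no difference from the glial quotients is read.

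miR-135a and miR-365 did not share this constancy. miR-135a was at 4.49%, 8.22%, 5.95% and 4.06% of miR-204 in adult MG, P11 MG, 8 DIV and 14 DIV, but at 46.5% in P11 neurons and 9.78% in adult neurons. At the median glial quotient P11 neurons would hold 409 raw counts of miR-135a, and 3305 were measured. miR-365 was at 0.425%, 0.289%, 0.738% and 2.44% in the MG samples, highest at 14 DIV.

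**Figure D4:**
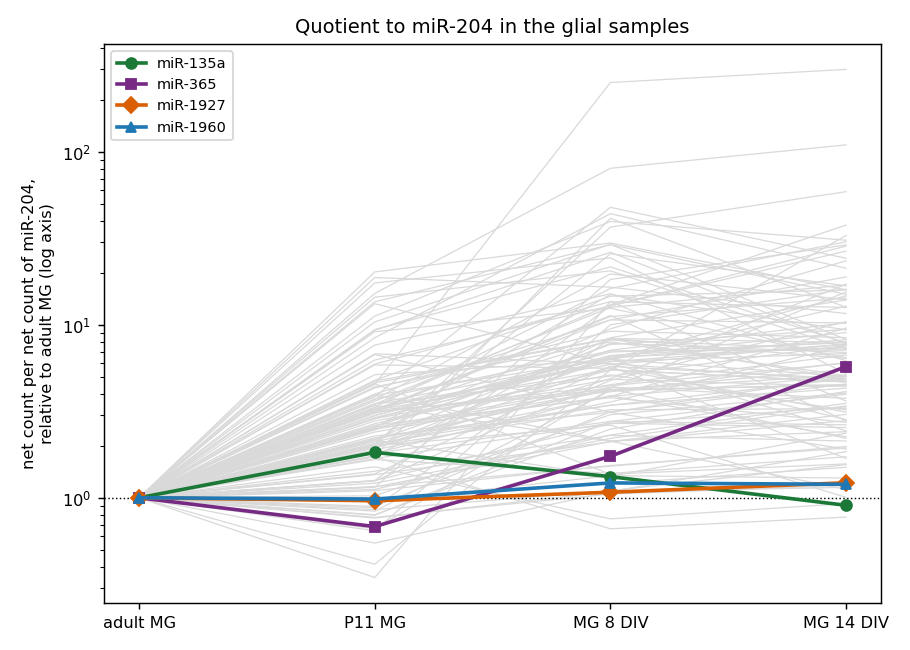
Background-subtracted count divided by that of miR-204, relative to adult MG (log axis), in the 4 MG samples; grey lines are the other probes above background in all of them. miR-1927 and miR-1960 stay close to 1 (highest over lowest 1.27 and 1.24), while miR-365 is highest at 14 DIV.

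The relatives of the 4 on the panel were low. miR-135b has the same seed as miR-135a, and the stretch of its hairpin at chr1:132198103-132198125 on the plus strand is shown with its seed and the differing base in capitals.
miR-135b: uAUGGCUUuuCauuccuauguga
The only difference from miR-135a-5p over 23 bases is U11C, counted from the 5′ end of miR-135a-5p. miR-135b had 16 raw counts in adult MG, 76 in adult neurons, 27 in P11 MG, 98 in P11 neurons, 136 at 8 DIV and 36 at 14 DIV. It was above background in both neuron samples and at 8 DIV, and at background in adult MG, where miR-135a was highest. At 8 DIV the background-subtracted count of miR-135a was 29.8 times that of miR-135b. Of the neighbours of miR-365, miR-193 was at background in all 6 samples (6 to 38 raw counts), and miR-193b had 89, 87 and 109 raw counts in adult MG, 8 DIV and 14 DIV and was at background in the other samples. miR-193b was 1.53-fold higher at 14 than at 8 DIV (0.845 to 2.85), an interval that includes 1.

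miR-1927 and miR-1960 belong by number to a run of 66 probes, mmu-miR-1892 to mmu-miR-1971. Without these 2, 10 of the 15 measured members of that run were at least 2-fold higher in adult than in P11 MG and 0 were lower, beside 24.3% of all measured probes that were higher, with a median log2 ratio of 1.48 against 0.27. In adult over P11 neurons 12 of 12 were higher, beside 77.1% of all probes, a share that includes upper bounds. In 14 DIV over adult MG 13 of 15 were lower and 1 was higher, beside 51.6% of all probes counted as lower, lower bounds included. Between adult MG and adult neurons they did not share a direction: of 17, 2 were higher and 8 lower. Of the 201 probes measured 16 were higher and 136 lower. The lower calls include lower bounds, such as that of miR-1952 in this run, which was at background in adult neurons. The direction of such a probe is unknown. The most abundant other member of the run, miR-1944, had 4350 scaled counts in adult MG and 37872 in adult neurons, 8.71-fold lower in adult MG. miR-1965, with 786 scaled counts in adult MG, was 3.46-fold higher there than in adult neurons (2.43 to 5.18).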

How the data were processed

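The authors hybridised RNA of each pooled sample to the NanoString nCounter mouse miRNA panel, and the deposited raw table holds 1 count per probe and sample, not normalised. The deposited value table, read here as a score, holds values that the authors normalised in nSolver to housekeeping mRNAs and controls in 2 data sets; it has 8 columns because the fresh MG samples stand in both. For the 4 miRNAs all 32 deposited values lay within 2 of values recomputed from the raw counts, so this table served only as an alternative.

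Raw counts were raised to background (mean plus 2 SD of 8 negative controls), reduced by the mean negative control and scaled by 4 housekeeping mRNAs, with adult MG as the anchor. Probes above background in either sample of a pair (566 mouse and 33 viral probes in all) were measured. Bounds were counted at their value, so counts and shares of higher or lower probes can include probes of unknown direction. No test was run with 1 sample per group. Members and lists were chosen with earlier results of these data known. Named were the 4 members, their relatives, the 3 probes most like each member and the most abundant members of the list; the comparison with miR-204 was added after the values were seen. Poisson limits leave out the error of the scale and treat counts as independent. The alternatives were 8 other scalings, no background subtraction, another background limit, 3-fold, a filter at 50 scaled counts and the deposited values. Scripts were tested on simulated data. The work used matplotlib 3.10.9, scipy 1.17.1, numpy 2.4.6, pandas 2.3.3 and Python 3.11.15.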

Additional observations from a re-analysis of the deposited data

Results flagged for a closer look

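The ratio of adult to P11 for miR-135a differed between MG and neurons by 2.44 on the log2 scale: it was higher in the adult in MG (0.89) and lower in the adult in neurons (-1.55). It stood out because the only sample pair of each cell type moved in opposite directions with the housekeeping sum as the scale, although the ratio in MG did not reach 2-fold. The difference equals the log2 ratio of adult MG over adult neurons (3.05) minus that at P11 (0.61), so it contains the adult values on which miR-135a was selected and is a description. It was not tested, since each condition is 1 pooled sample. Under the other scalings it ranged from 1.80 with Actb alone to 5.44 with the positive ligation controls, and with equal totals both ratios were below 0 (-0.10 in MG and -3.48 in neurons).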

How the results depend on the processing

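With 1 sample per condition no replicate could be left out. No paired analysis was possible because each group holds 1 sample. Of 162 counts of members under alternatives 135 stayed within 1.5 times and 27 did not, and all 14 recounts of panel probes stayed. Of 232 log2 ratios of members at least 2-fold, 224 kept their sign under the alternatives and 8 did not, of which 3 were lower bounds of miR-1927, whose direction is then unknown; B2m alone could not be used for neurons, where it was below background. Members at least 2-fold higher in adult than in P11 MG numbered 3, and 1 with equal totals. In adult over P11 neurons 2 were higher, but 0 with Gapdh alone, the ligation controls, the positive controls, equal totals or the top 100 miRNAs; 1 was lower, but 2 with the ligation controls and 0 with Actb alone or a 3-fold rule. At 8 DIV 3 were lower than in P11 MG, but 1 with equal totals, the positive controls, the ligation controls, Gapdh alone or a 3-fold rule and 0 with Actb alone. From 8 to 14 DIV 1 was higher, but 0 with Actb alone or a 3-fold rule and 2 with B2m alone; 1 was lower, but 3 with Actb alone and 0 with a 3-fold rule, the 2 kinds of controls, the top 100 miRNAs, equal totals or Gapdh, Rpl19 or B2m alone. The values whose sign turned were the lower bounds of adult over P11 neurons for miR-1927 (-1.21 with the ligation controls, -0.31 with equal totals and -0.070 under the top 100) and the log2 ratios of the same pair for miR-1960 (-0.0033 and -0.90 with equal totals and the ligation controls), of 14 over 8 DIV for miR-135a (0.42 with B2m alone), and of 14 DIV over adult MG for miR-365 (0.70 with equal totals and 0.0013 with Gapdh alone). The cause was not tested. The nearest probes to each member, taken among probes above background in all 6 samples, were shared in 3 of 3 for miR-135a and miR-1960, 2 for miR-1927 and 1 for miR-365. Low counts in neurons limit miR-365, miR-1927 and miR-1960 there to bounds or wide intervals.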
